A study of Mus musculus with 6 samples.

Results

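The genes described here encode enzymes and subunits that write, read or erase marks on DNA and histones or that move nucleosomes. The set was a fixed list of 47 mouse genes, matched by gene symbol to the probe sets of the array: 44 genes had 1 probe set each, among 22206 probe sets in all, and Kmt2a, Arid1a and Chd4 were not analysed here. Expression was measured on Affymetrix Clariom S arrays in mouse HoxB8 neutrophil progenitors, a cell system in which the homeobox factor Hoxb8 holds back maturation. The cells had spent 1 day in differentiation medium that contained SCF supernatant. In 3 samples the cells expressed the K313 form of C/EBPα, named after a mutation associated with acute myeloid leukaemia (K313), and in 3 samples wild-type C/EBPα (WT). C/EBPα is the transcription factor that commits progenitors to the granulocyte lineage. How the forms were introduced, whether the cells' own Cebpa gene was kept and whether each line came from 1 clone are not given in the sources used here.

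DNA methyltransferases add a methyl group to cytosines that precede a guanine, and the TET enzymes oxidise that group as a step towards its removal. Polycomb complexes place repressive marks on histones H2A and H3, the MLL family methylates lysine 4 of histone H3 at promoters and enhancers, and histone demethylases take such marks off again. Deacetylases and acetyltransferases set the acetylation of histones, and the SWI/SNF and NuRD complexes use ATP to move nucleosomes. Several of these genes, among them Dnmt3a, Tet2 and Asxl1, are recurrently mutated in human myeloid leukaemia.

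The myeloperoxidase gene Mpo was 1 of the neutrophil progenitor markers examined. Its log2 level lay between 18.38 and 18.44 in the K313 arrays and between 18.36 and 18.51 in the WT arrays. That is near the highest value on the arrays, 18.59, where a difference may not show. Of 13 measured neutrophil progenitor markers, 4 were higher and 2 lower in K313, against 3.77% and 3.97% of all probe sets. The granule protease genes Elane (3.29 ± 0.28), Ctsg (1.75 ± 0.16) and Prtn3 (0.94 ± 0.17) and the membrane protein gene Ms4a3 (0.81 ± 0.18) were higher, in log2 units with standard errors. The stem and progenitor antigen gene Cd34 (-0.93 ± 0.15) and the granulocyte growth factor receptor gene Csf3r (-1.03 ± 0.22) were lower. The Ms4a3 call was lost without K313 replicate 1 (adjusted p = 0.0546), K313 replicate 3 (0.0799), WT replicate 1 (0.0557) or WT replicate 3 (0.0759), and the Csf3r call without K313 replicate 2 (0.0613). WT replicate 3 stood apart from the other WT arrays. Its level of the Y-linked gene Eif2s3y was 7.03, against 3.11 and 2.93 in WT replicates 1 and 2, while the K313 arrays read 12.37, 12.09 and 12.24. Over all probe sets it also correlated more closely with the K313 arrays (r of 0.987 to 0.989) than WT replicates 1 and 2 did (0.983 to 0.986). Whether this sample holds cells of more than 1 origin was not tested, so the WT means may not stand for 1 uniform cell population, and calls without it are given with the results. Array medians lay between 5.01 and 5.13, so a level near 5 is close to the middle of all probe sets and cannot be told from background, because no detection calls were used here. Nothing in the labels tells separate cultures from repeat samples of 1 culture, so the p-values rest on a spread that may be purely technical.

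All 3 DNA methyltransferase genes were lower in K313 cells. Dnmt3b and Dnmt3a encode the enzymes that set new methylation, and Dnmt1 encodes the enzyme that copies methylation onto the new strand after replication. The sequences around their annotated starts are shown because these genes fell together. Each run covers 250 bases before and 50 bases after a start in the RefSeq annotation of GRCm38.p6, and capitals mark CG dinucleotides, the sites these enzymes methylate. Dnmt3b has 1 such start in the promoter table, on the plus strand at chr2:153649199-153649498. Of the 3 starts of Dnmt3a, all on the plus strand, the 2 printed lie at chr12:3806910-3807209 and chr12:3891494-3891793. Of the 3 starts of Dnmt1, all on the minus strand, the 1 printed lies at chr9:20952574-20952873.
Dnmt3b: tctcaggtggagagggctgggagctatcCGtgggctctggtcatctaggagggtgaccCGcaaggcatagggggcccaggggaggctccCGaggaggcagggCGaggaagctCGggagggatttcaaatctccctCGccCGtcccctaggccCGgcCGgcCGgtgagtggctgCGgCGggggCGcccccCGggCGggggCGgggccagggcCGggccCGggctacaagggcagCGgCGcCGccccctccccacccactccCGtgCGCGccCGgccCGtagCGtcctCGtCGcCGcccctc
Dnmt3a, upstream start: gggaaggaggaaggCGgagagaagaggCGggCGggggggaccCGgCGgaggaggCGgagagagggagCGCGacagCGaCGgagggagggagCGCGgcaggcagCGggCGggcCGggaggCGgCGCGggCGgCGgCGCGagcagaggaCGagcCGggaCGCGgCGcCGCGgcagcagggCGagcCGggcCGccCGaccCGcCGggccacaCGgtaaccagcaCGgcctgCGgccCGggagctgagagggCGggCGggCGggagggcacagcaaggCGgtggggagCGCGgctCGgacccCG
Dnmt3a, downstream start: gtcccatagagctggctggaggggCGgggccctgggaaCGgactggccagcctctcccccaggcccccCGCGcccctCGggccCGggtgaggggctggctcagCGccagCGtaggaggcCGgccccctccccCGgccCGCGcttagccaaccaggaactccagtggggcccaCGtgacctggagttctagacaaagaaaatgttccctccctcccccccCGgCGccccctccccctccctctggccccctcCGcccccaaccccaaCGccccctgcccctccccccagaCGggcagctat
Dnmt1: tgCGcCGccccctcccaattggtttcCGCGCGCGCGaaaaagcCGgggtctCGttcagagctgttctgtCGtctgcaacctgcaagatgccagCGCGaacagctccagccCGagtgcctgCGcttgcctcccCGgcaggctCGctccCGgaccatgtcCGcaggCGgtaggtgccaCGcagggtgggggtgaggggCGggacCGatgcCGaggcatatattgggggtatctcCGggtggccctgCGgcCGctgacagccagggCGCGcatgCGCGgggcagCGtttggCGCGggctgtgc
The Dnmt3b run holds 30 CG dinucleotides, the Dnmt3a runs 47 and 18, and the Dnmt1 run 33. The median is 7 over all 32851 promoters of the table and 30 over the 49 member promoters. Such counts are therefore not particular to the methyltransferase genes. The Dnmt1 start printed is the one with the most CG dinucleotides and was chosen after these counts were seen, since its other starts hold 12 and 2. The Dnmt3a start not shown holds 46 and overlaps the upstream one. Both C/EBP motifs searched, TTNNGCAA and TTGCGCAA, which overlap, were sought on both strands. Neither was found in the 12 promoters of the 8 called members in the table (Kdm6b is not in it). TTNNGCAA was in 10.8% of all promoters and in 2 of 49 member promoters, those of Cbx8 and Smarcd2. TTGCGCAA was in 0.183% of all promoters and in 0 of the 49. The E2F motif TTTNGCGC, a sequence bound by the factors that drive S phase genes, was in 1.38% of all promoters and in 2 of the 49. These belonged to Ezh2 and Dnmt1, and the Dnmt1 run holds it at positions 32 and 284, counted from 1 at its 5′ end. A match is a description of the letters and no evidence of binding, and which start the array's probe sets detect was not tested.

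Dnmt3b had the largest fall among the 44 measured genes. Its log2 level was 9.30, 9.15 and 8.97 in the K313 arrays, against 10.84, 11.03 and 11.31 in the WT arrays, so every K313 array lay at least 1 log2 unit below every WT array. The change was -1.92 ± 0.18 (SE, n = 3 per group; limma adjusted p = 3.29e-05), which is 3.78-fold lower. Dnmt3a read 7.28, 7.20 and 7.47 in K313 and 8.46, 8.97 and 8.80 in WT, again without overlap, a change of -1.43 ± 0.18 (2.69-fold lower, adjusted p = 0.000326). Dnmt1 fell less. It read 13.21, 13.24 and 12.97 in K313, against 13.68, 13.92 and 13.64 in WT, a change of -0.61 ± 0.16 (1.52-fold lower, adjusted p = 0.0439).

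**Figure D1:**
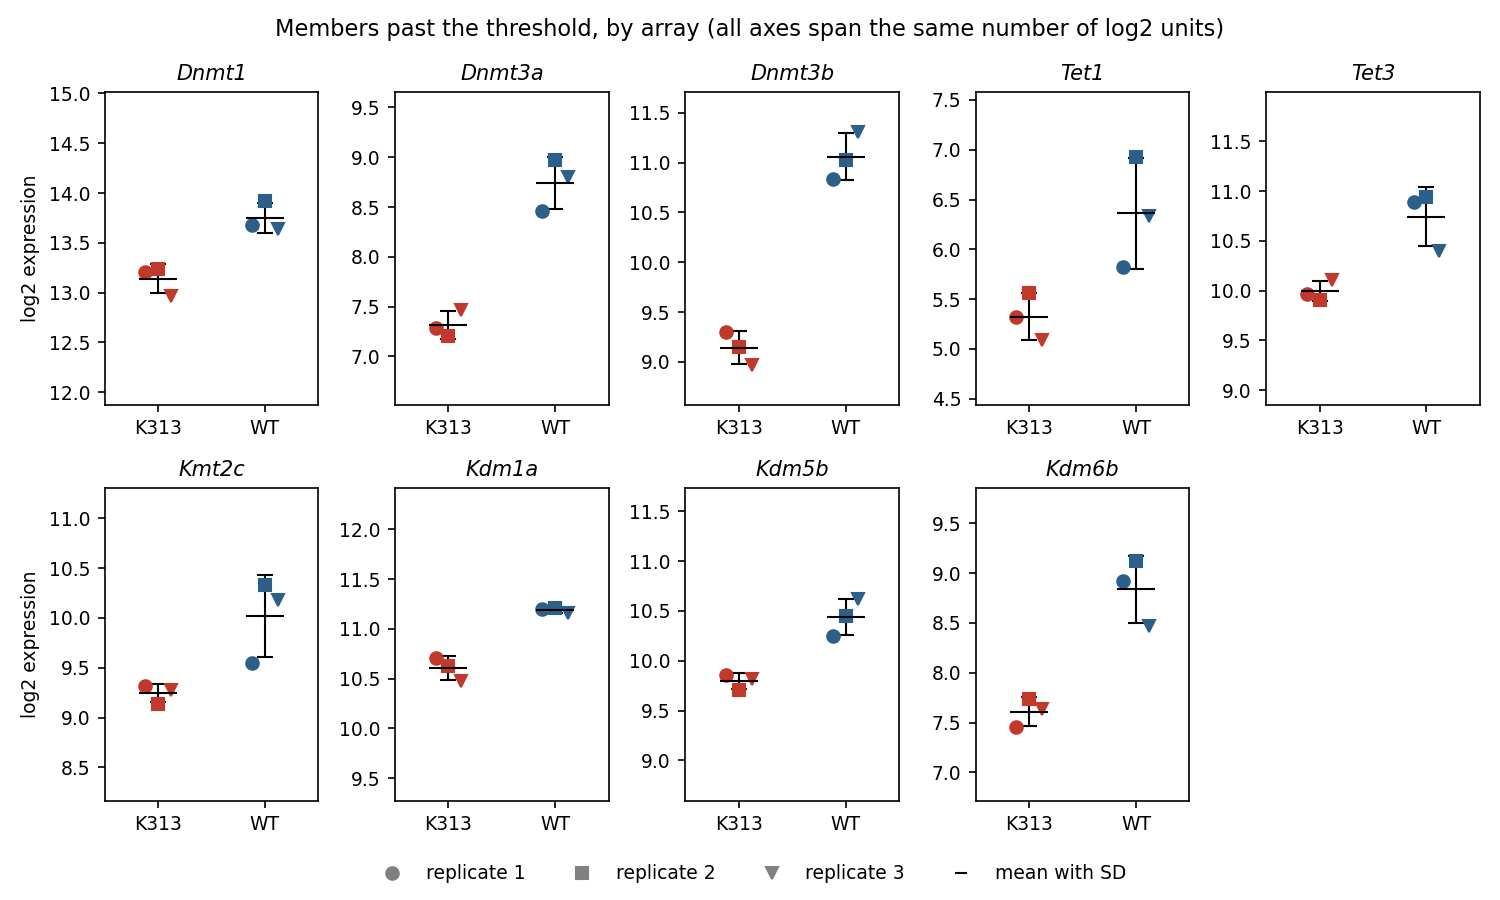
Deposited log2 expression of the 9 members with an adjusted p under 0.05, K313 arrays left and WT arrays right; points are arrays, black bars are means with SD (n = 3), and every axis spans the same number of log2 units. In all 9 genes each K313 array lies below each WT array, with the widest gap in Dnmt3b (9.14 against 11.06 on average).

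The TET genes, whose enzymes act on methylated cytosine, were also lower where they changed. Tet3 read 9.97, 9.91 and 10.11 in K313 arrays and 10.89, 10.94 and 10.40 in WT arrays, a change of -0.75 ± 0.18 (1.68-fold lower, adjusted p = 0.0275). WT replicate 3 was the closest of the WT arrays to K313 in this gene. Tet1 read 5.32, 5.56 and 5.09 in K313, close to the array medians, and 5.82, 6.93 and 6.33 in WT, a change of -1.04 ± 0.26 (adjusted p = 0.0300). Tet2, the family member most often mutated in myeloid leukaemia, read 12.04, 11.75 and 11.96 in K313 and 11.91, 12.92 and 12.42 in WT. Its groups overlapped, and its change of -0.50 ± 0.23 did not pass the threshold (adjusted p = 0.30, 95% interval -1.02 to 0.02).

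Across the whole list, 9 of 44 genes (20.5%) were lower in K313 at an adjusted p under 0.05, against 3.97% of all 22206 probe sets (7.75% in either direction). With a change of at least 1.5-fold also required, 8 of 44 were lower, against 3.94% of all probe sets. None of the 44 was higher by the same limma test, against 3.77% of all probe sets; at an unadjusted p under 0.05 the counts were 15 lower and 1 higher, against 9.04% and 8.79% of all probe sets. The fitted change was below 0 in 38 of the 44 genes, compared with 47.4% of all probe sets. The median change was -0.27 for the list and 0.02 for all probe sets. The groups did not overlap in 16 genes lower in K313 and in 2 genes higher in K313, where 10.9% and 11% of all probe sets were without overlap in those directions. These counts describe a list chosen with results of these data known and carry no test of the list itself.

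**Figure D2:**
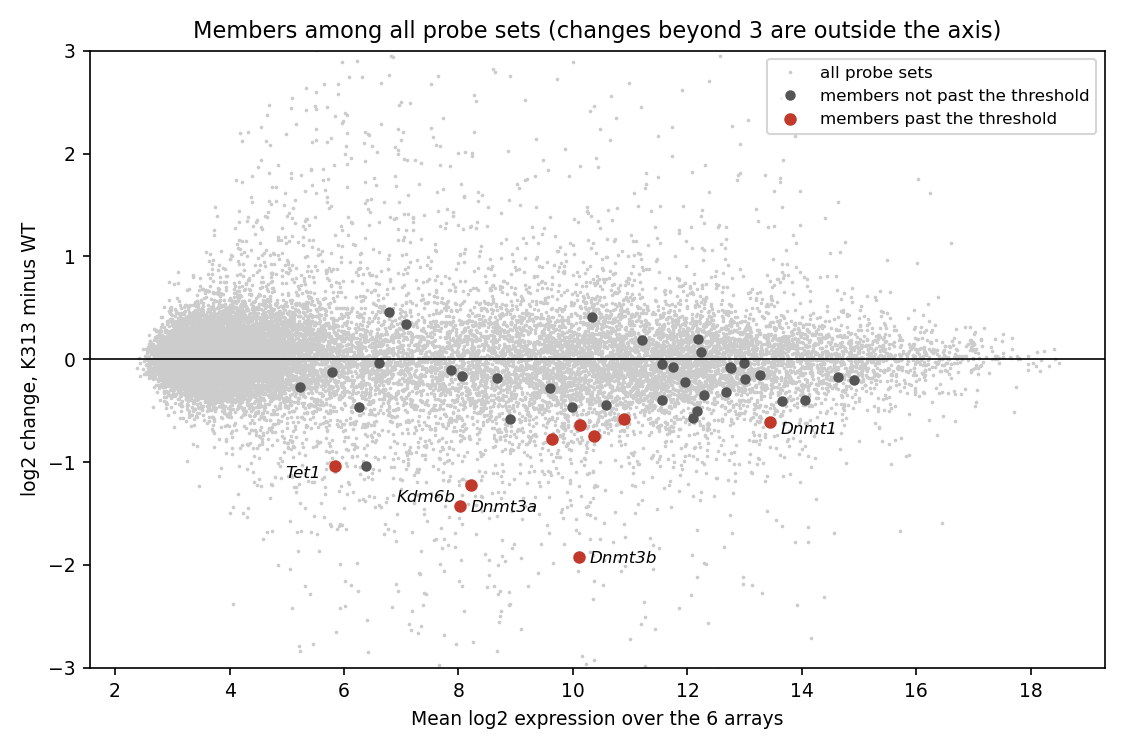
Change (K313 minus WT, log2) against mean log2 expression over the 6 arrays for all 22206 probe sets (grey), the 35 members not past the threshold (dark) and the 9 past it (red). All red points lie below 0 and span mean levels from that of Tet1, near 6, to that of Dnmt1, above 13.

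Among the histone demethylases, 3 of 6 were lower in K313, against 3.97% of all probe sets. Kdm6b, which removes methyl groups from lysine 27 of histone H3 and so opposes Polycomb, read 7.45, 7.74 and 7.64 in the K313 arrays and 8.92, 9.12 and 8.47 in the WT arrays, without overlap. Its change was -1.23 ± 0.19 (2.34-fold lower, adjusted p = 0.00180). Kdm5b, which removes methyl groups from lysine 4 of histone H3, read 9.86, 9.71 and 9.82 in K313, against 10.25, 10.45 and 10.62 in WT, a change of -0.64 ± 0.16 (adjusted p = 0.0310). Kdm1a, also called LSD1, acts on the same lysine within corepressor complexes, and myeloid differentiation depends on it. It read 10.71, 10.63 and 10.48 in K313 and 11.20, 11.21 and 11.16 in WT, a change of -0.58 ± 0.15 (adjusted p = 0.0361). The WT arrays of Kdm1a lay within 0.05 of each other. Kdm2b, which recruits a variant Polycomb complex to unmethylated CG-rich promoters, had the largest positive change of the list, 0.46 ± 0.19, with no overlap between groups but an adjusted p of 0.223. Kdm5a (-0.28 ± 0.21) and Kdm4a (-0.19 ± 0.25) did not pass the threshold.

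Of the MLL family, Kmt2c fell. It encodes an enzyme that methylates histone H3 at enhancers, and it read 9.32, 9.14 and 9.28 in K313 and 9.55, 10.33 and 10.18 in WT. The groups did not overlap, although WT replicate 1 lay only 0.23 above the highest K313 array, and the change was -0.77 ± 0.21 (adjusted p = 0.0447). The related Kmt2d read 5.78, 6.26 and 5.57 in K313 and 6.63, 7.91 and 6.19 in WT. Its change of -1.04 ± 0.37 did not pass (adjusted p = 0.140), with overlapping groups and a WT spread of 0.89 (SD). Without WT replicate 3 it did pass (-1.40, adjusted p = 0.0416). Kmt2e differed by -0.32 ± 0.25, and Men1, whose product menin tethers MLL proteins to chromatin, by -0.07 ± 0.15 (95% interval -0.40 to 0.25).

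**Figure D3:**
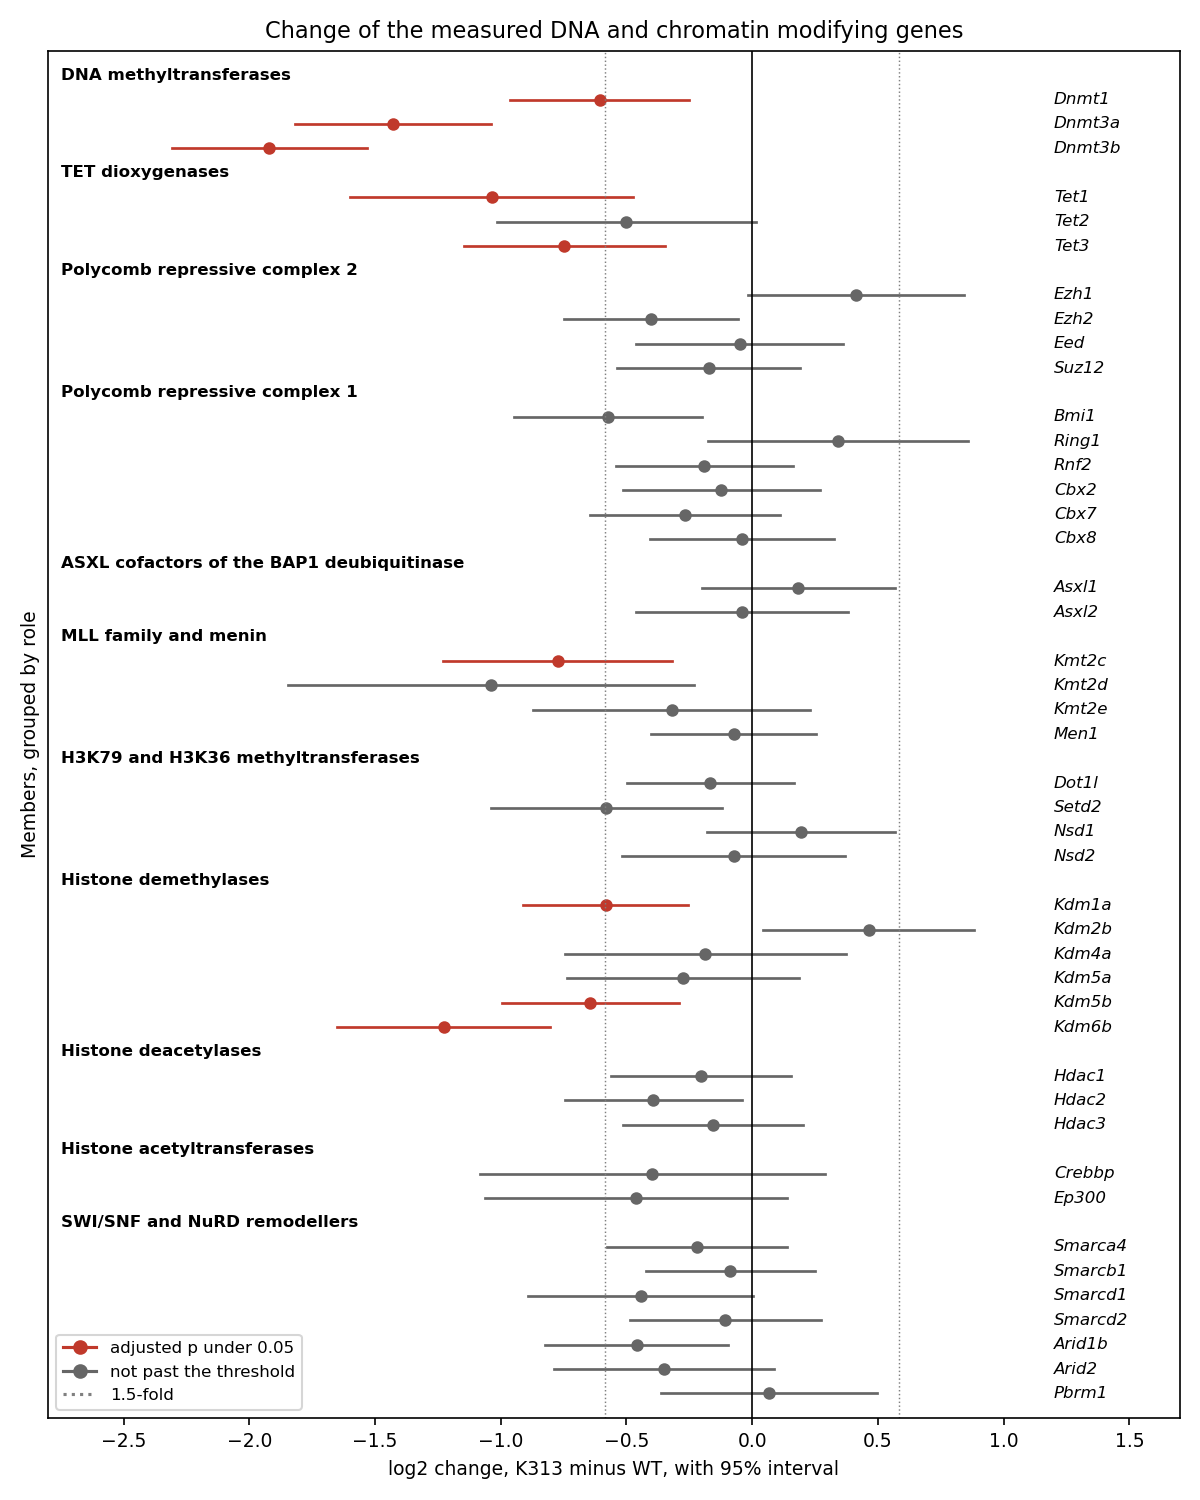
Change of each of the 44 measured members (K313 minus WT, log2; points, with 95% intervals as lines), grouped by role; red marks an adjusted p under 0.05 and dotted lines mark 1.5-fold. Red points occur among DNA methyltransferases (3 of 3), TET genes (2 of 3), the MLL family (1 of 4) and histone demethylases (3 of 6), and in no other role group.

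The Polycomb genes on the list did not pass the threshold in either direction, with 0 of 10 called by limma. Of all probe sets, 3.97% were called lower and 3.77% higher. At an unadjusted p under 0.05, 2 of the 10 were lower, against 9.04% of all probe sets. Counts this small say little about the Polycomb genes as a group. The methyltransferase subunits of Polycomb repressive complex 2 had changes of opposite sign. Ezh2, the form of dividing cells, read 13.56, 13.54 and 13.27 in K313 and 13.83, 13.80 and 13.95 in WT, a difference of -0.40 ± 0.16 (adjusted p = 0.191). Ezh1, the form that prevails in resting cells, read 10.91, 10.36 and 10.37 in K313 and 9.92, 10.14 and 10.34 in WT, a difference of 0.41 ± 0.20 (adjusted p = 0.306). Neither pair of groups overlapped, and neither difference passed the threshold. Suz12, a core subunit, differed by -0.17 ± 0.17. In Polycomb repressive complex 1 the nearest to the threshold was Bmi1, a self-renewal factor of blood stem cells. Its levels were 11.83, 11.65 and 11.97 in K313, against 12.57, 12.18 and 12.42 in WT, a difference of -0.57 ± 0.17 (adjusted p = 0.0693). With each array shifted to a common median or with array weights, Bmi1 passed (adjusted p = 0.0440 and 0.0433). Ring1 (0.34 ± 0.23) and Cbx7 (-0.27 ± 0.17) missed it. Asxl1 and Asxl2, cofactors of the deubiquitinase BAP1 that removes the Polycomb mark from H2A, differed by 0.18 ± 0.17 and -0.04 ± 0.19.

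No gene among the remaining writers, deacetylases, acetyltransferases and remodellers passed the limma threshold. Of all probe sets, 3.97% were called lower and 3.77% higher. At an unadjusted p under 0.05, 3 of these 16 genes were lower and 0 higher, against 9.04% and 8.79% of all probe sets. Counts this small say little about these classes of genes. Setd2, which methylates histone H3 along transcribed genes, differed by -0.58 ± 0.21 (adjusted p = 0.148), Nsd1 by 0.19 ± 0.17 and Dot1l, which methylates a lysine in the core of histone H3, by -0.17 ± 0.15. The deacetylase genes Hdac2, Hdac1 and Hdac3 differed by -0.39 ± 0.16, -0.20 ± 0.16 and -0.16 ± 0.16. The acetyltransferase genes Ep300 (-0.46 ± 0.27) and Crebbp (-0.40 ± 0.31) had wide errors. Among SWI/SNF subunits, Arid1b (-0.46 ± 0.16, adjusted p = 0.147), Smarcd1 (-0.44 ± 0.20) and Arid2 (-0.35 ± 0.20) came nearest to the threshold. Smarcd2, chosen after its values were seen because its product is needed for neutrophil granule formation, read 7.53, 8.06 and 7.84 in K313 and 7.93, 7.96 and 7.86 in WT. The groups overlapped, and its 95% interval, -0.49 to 0.27, excluded a change of 1.5-fold.

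Of the 35 members that did not pass, 17 had a 95% interval lying wholly within a 1.5-fold change in both directions. They include Eed, Rnf2, Men1, Dot1l, Hdac1, Hdac3, Smarca4, Smarcb1 and Pbrm1. In 15 others the interval reached a fall of 1.5-fold and in 3 it reached a rise of that size, so for these a change that large was neither called nor outside the interval with 3 arrays per group.

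Of the 9 calls, those of Dnmt3b, Dnmt3a and Kdm6b held whichever array was left out and under all 6 other settings tried. With any 1 array left out their changes ranged from -2.03 to -1.80 for Dnmt3b, from -1.57 to -1.31 for Dnmt3a and from -1.41 to -1.09 for Kdm6b. The other 6 genes stayed below 0 in each fit but lost their calls in most fits with 5 arrays. There were 3 members called without K313 replicate 1, K313 replicate 2, K313 replicate 3 or WT replicate 2. Without WT replicate 3 there were 5 (Dnmt3b, Dnmt3a, Kdm6b, Tet3 and Kmt2d), and without WT replicate 1 there were 6. Dnmt1 missed the threshold without any of the 6 arrays (adjusted p between 0.0751 and 0.163), as did Kdm1a (between 0.0629 and 0.131). Tet1, Kmt2c and Kdm5b passed only without WT replicate 1 (adjusted p = 0.00580, 0.00514 and 0.0292) and missed it without any other array, at values up to 0.131, 0.159 and 0.127. Tet3 passed only without WT replicate 3 (adjusted p = 0.0106) and reached 0.112 otherwise. Dnmt1 and Kmt2c also missed it with quantile normalization (0.0531 and 0.0629), and Dnmt1 with array weights (0.0525).

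**Figure D4:**
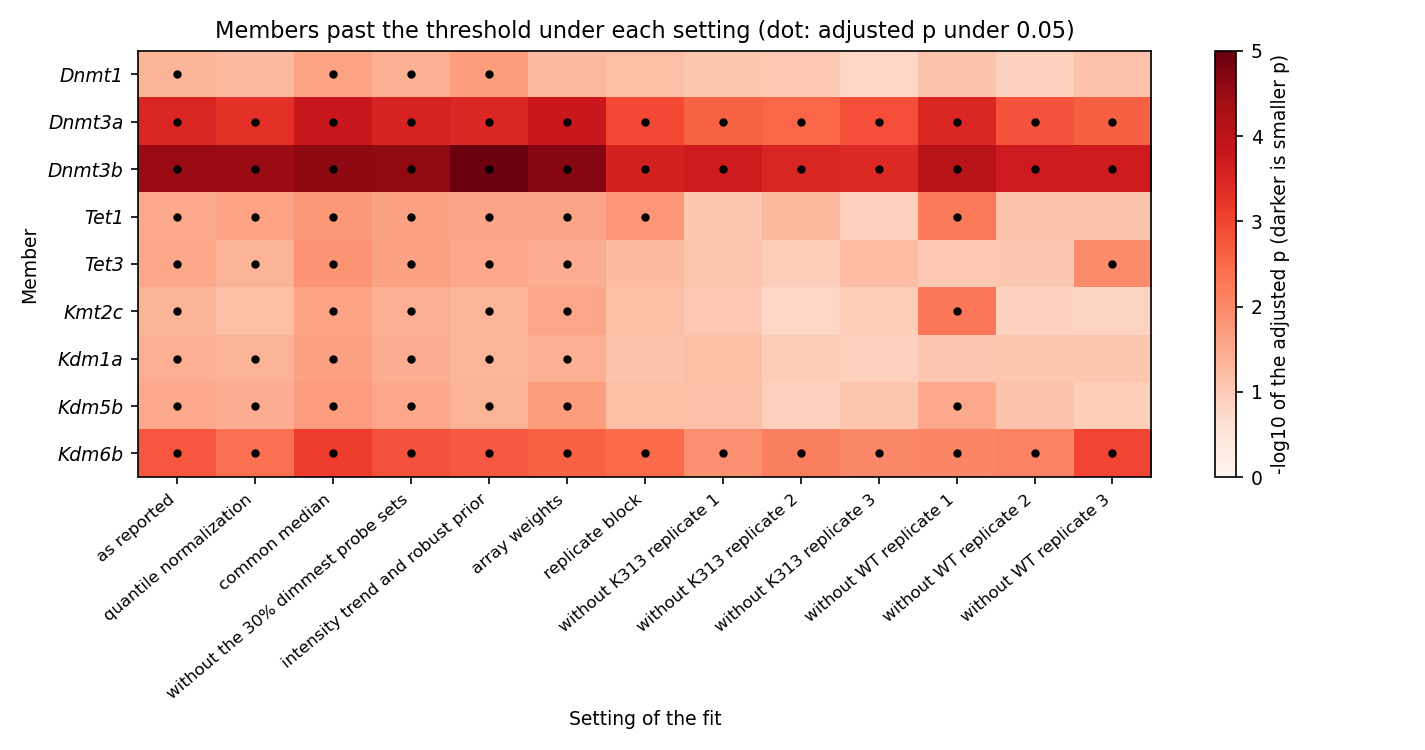
Adjusted p of the 9 members (rows) in the reported fit and under 12 other settings (columns), shaded by -log10 of the adjusted p; a dot marks a value under 0.05. Dnmt3a, Dnmt3b and Kdm6b carry a dot in every column, and the other 6 genes lose most dots in the columns that leave out an array.

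WT replicate 2 stood apart in several of these genes. It was the highest of the WT arrays in 22 of 44 members, compared with 31.8% of all probe sets, and exceeded both other WT arrays by more than 0.5 in 6 members, against 3.84% of all probe sets. These were Tet1, Kmt2d, Kmt2e, Kdm4a, Crebbp and Ep300, with gaps of 0.60, 1.28, 0.90, 0.76, 1.25 and 0.88. Without WT replicate 2 the median change of the list was -0.17, and fewer members were below 0 than the 38 given above. The change then turned positive for Crebbp (0.05), Kdm4a (0.14), Nsd2 (0.08) and Asxl2 (0.06) and was just above 0 for Kmt2e (0.0033). It shrank to -0.12 for Ep300, -0.25 for Tet2, -0.54 for Kmt2d and -0.75 for Tet1, so the larger differences given above for these genes rest in part on this 1 array. What sets this array apart in those genes was not tested.

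The Y-linked demethylase genes Kdm5d and Uty differed between the groups by more than any member did. Kdm5d, the Y-linked relative of Kdm5b, read 8.81, 8.17 and 7.70 in K313 and 3.10, 3.37 and 4.31 in WT, a change of 4.63 ± 0.33 (adjusted p = 5.58e-06). Uty, the Y-linked relative of Kdm6b, read 12.37, 11.67 and 11.97 in K313 and 3.72, 3.78 and 6.81 in WT, a change of 7.23 ± 0.65 (adjusted p = 2.83e-05), or 8.25 without WT replicate 3. WT replicates 1 and 2 lay near the low end of the measured range in both genes, so the sizes of these changes are not settled and may be understated. The X-linked partners lay the other way. Kdm5c read 9.20, 9.25 and 9.37 in K313, against 10.21, 10.33 and 10.14 in WT (-0.95 ± 0.15, adjusted p = 0.00189). Kdm6a read 12.83, 12.51 and 12.35 in K313, against 13.11, 13.91 and 13.95 in WT (-1.09 ± 0.24, adjusted p = 0.0142). The Kdm6a call was lost without K313 replicate 2 (0.0598), K313 replicate 3 (0.0733), WT replicate 2 (0.0549) or WT replicate 3 (0.0633). Of the other X-linked genes known to escape inactivation, Eif2s3x differed by -0.34 ± 0.17 and Ddx3x by 0.19 ± 0.16. Whether probes of an X-linked gene also detect its Y-linked copy was not tested. The groups thus differ in Y-linked transcripts, in the level of Hoxb8 (given below) and in the form of C/EBPα. The parts of these in the members' changes cannot be told apart.

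**Figure D5:**
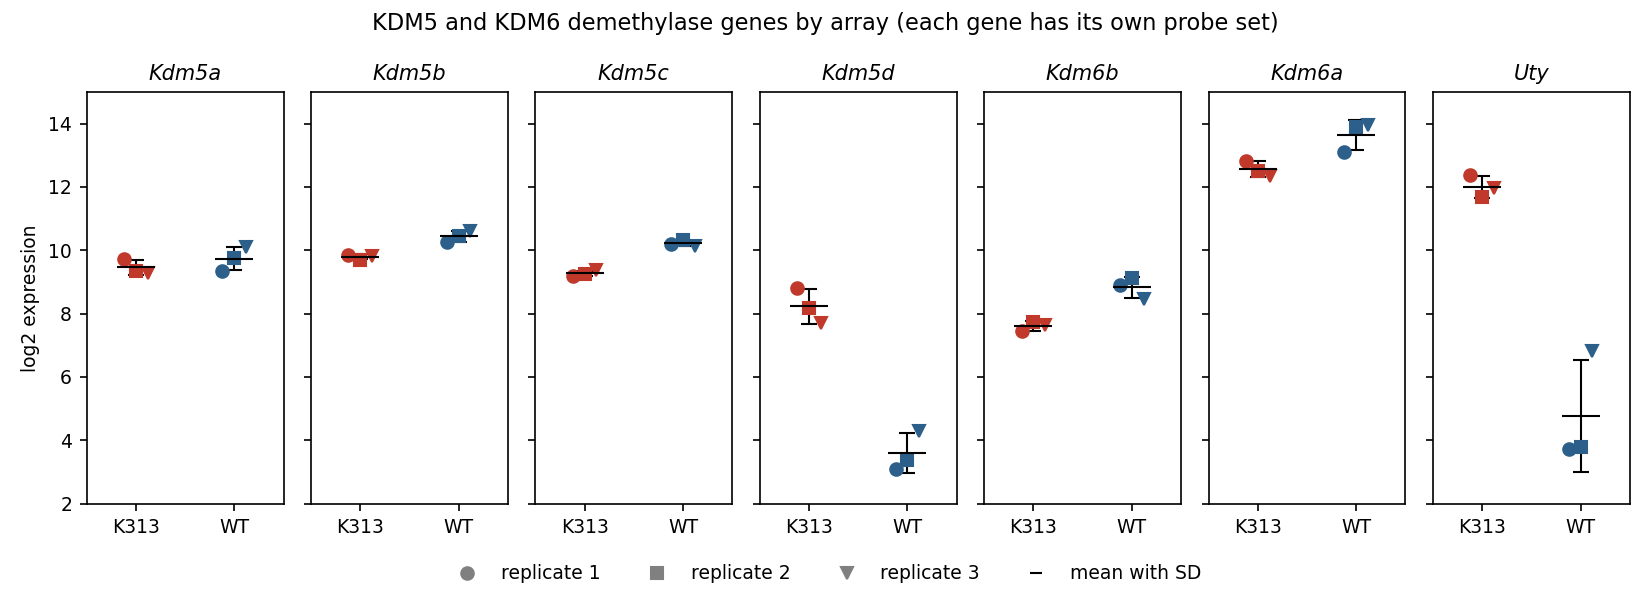
Deposited log2 expression of the KDM5 and KDM6 genes by array, K313 left and WT right, with mean and SD (n = 3); levels of different genes come from different probe sets and are not compared. Y-linked Kdm5d and Uty are higher in every K313 array, and Kdm5b, Kdm5c, Kdm6b and Kdm6a are lower in every K313 array.

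Other genes of the same pathways were examined on a list of 235 further genes, of which 211 were measured with 215 probe sets. Of these, 7 probe sets were higher (3.26%) and 8 lower (3.72%) in K313, close to the 3.77% and 3.97% of all probe sets. The 7 higher include the Y-linked Kdm5d and Uty, and the 8 lower include the X-linked Kdm5c and Kdm6a. At an unadjusted p under 0.05, 38 of the 215 were lower and 18 higher, against 9.04% and 8.79% of all probe sets. The fitted change was below 0 in 134 of the 215, compared with 47.4% of all probe sets, and the median change was -0.06. A lean towards lower values was thus not particular to the members. Among 12 measured DNA methylation genes, Uhrf2, a relative of the Dnmt1 partner Uhrf1, was the 1 that passed. It read 10.39, 10.00 and 10.01 in K313 and 8.63, 8.60 and 9.34 in WT, a rise of 1.28 ± 0.22 (adjusted p = 0.00345). The damage repair glycosylase gene Mbd4 (-0.55 ± 0.18) and the Gadd45a gene (0.41 ± 0.20) did not pass. Of 9 further Polycomb repressive complex 2 genes 0 passed by limma, with 1 higher and 0 lower at an unadjusted p under 0.05.

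In Polycomb repressive complex 1 and the BAP1 complex, 3 of 22 further genes fell and 0 rose by limma. The shares of all probe sets were 3.97% and 3.77%. At an unadjusted p under 0.05, 6 were lower and 1 higher, against 9.04% and 8.79% of all probe sets. The polyhomeotic gene Phc1 read 7.52, 7.20 and 7.09 in K313, against 9.14, 8.75 and 8.71 in WT, a change of -1.60 ± 0.18 (adjusted p = 0.000177). It was lower in all 3 K313 arrays than in any WT array. Mbd6, a partner of BAP1, fell by 1.14 on the log2 scale (SE 0.22, adjusted p = 0.00686). Pcgf2, a paralogue of Bmi1, fell by 1.05 (SE 0.27, adjusted p = 0.0388), a call lost without K313 replicate 1, 2 or 3 (0.0864, 0.127 and 0.128); without WT replicate 1 its change was -0.67.

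Of 22 further SWI/SNF subunits, 2 were higher and 2 lower, against 3.77% and 3.97% of all probe sets. Counts this small say little about the subunits as a group. Smarca2, the alternative ATPase to Smarca4, read 8.75, 8.21 and 8.24 in K313 and 6.86, 7.07 and 7.45 in WT, a rise of 1.27 ± 0.21 (adjusted p = 0.00237). Smarca4 itself differed by -0.22 ± 0.16 (adjusted p = 0.571). Bcl11a, a zinc finger factor found with SWI/SNF, was higher in K313 (5.32, 4.76 and 6.18, against 3.35, 3.20 and 3.08 in WT, adjusted p = 0.000542). Its WT levels were near background, so the fitted log2 difference of 2.21 may understate the rise and no exact fold is given. Dpf3, a histone-reading subunit, fell by 1.33 (SE 0.17, adjusted p = 0.000331). Bicra fell by 1.09 (SE 0.26, adjusted p = 0.0278) and lost its call without K313 replicate 2 (0.110), K313 replicate 3 (0.107), WT replicate 1 (0.0806) or WT replicate 2 (0.0793).

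Of the further deacetylase and corepressor genes, 3 of 29 probe sets passed, against 7.75% of all probe sets in either direction. Mta3, a NuRD subunit, read 12.10, 11.88 and 12.09 in K313 and 13.22, 12.81 and 12.94 in WT, a fall of 0.97 on the log2 scale (SE 0.17, adjusted p = 0.00353). Hdac9 rose by 0.81 ± 0.18 (adjusted p = 0.0195), and the call was lost without K313 replicate 1 (0.0814), K313 replicate 2 (0.0685), WT replicate 1 (0.0685) or WT replicate 3 (0.0800). The remodeller gene Chd3 was near background in both groups (means of 4.61 in K313 and 3.92 in WT, adjusted p = 0.0353) and lost its call without any array except WT replicate 1 (adjusted p between 0.0509 and 0.131). In the lists of H3K9 methylation, acetyltransferase and bromodomain, other remodeller and chaperone, arginine methyltransferase and further H3K4, H3K79 and H3K36 methylation genes, limma called 0 probe sets. At an unadjusted p under 0.05 5 of the 103 probe sets in these 5 lists were higher (4.85%) and 14 lower (13.6%), against 8.79% and 9.04% of all probe sets.

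Genes that mark division and other lineages were examined beside the members, and their changes differed from list to list. Of 25 measured cell cycle genes, 1 was higher and 0 lower by limma (2 higher and 0 lower at an unadjusted p under 0.05), with a median change of 0.02. The mean log2 level of that list was 13.45 to 13.52 in the K313 arrays and 13.41 to 13.50 in the WT arrays. The gene that passed was cyclin E1, Ccne1 (0.87 ± 0.17, adjusted p = 0.00920). Basophil and mast cell markers were lower in 5 of 10 and higher in 1, against 3.97% and 3.77% of all probe sets. Their mean levels were 10.19 to 10.48 in K313 and 10.71 to 11.03 in WT. Their changes ran in both directions, from -4.03 for Cd200r3 to 3.98 for Prss34. Eosinophil markers were lower in 4 of 6, with mean levels of 9.07 to 9.55 in K313 and 10.21 to 10.75 in WT. Erythroid and megakaryocyte markers were lower in 3 of 6 (5.76 to 6.07 in K313, 7.15 to 7.29 in WT). Lymphocyte markers were lower in 4 of 8 (4.83 to 4.92 in K313, 5.85 to 6.12 in WT). The lymphocyte means in K313 lay near the array medians and cannot be told from background. Monocyte and macrophage markers were higher in 4 of 9 and lower in 2 (8.22 to 8.51 in K313, 7.40 to 7.65 in WT). Their changes ran from -2.04 for Cx3cr1 to 4.45 for Cd14. Hoxb8 itself read 8.06, 8.53 and 8.42 in K313, against 12.45, 13.49 and 12.99 in WT. Its change of -4.64 passed the limma threshold and was larger in size than that of any member. The part of these differences in the members' changes was not tested, and in bulk RNA fewer cells of a type and less RNA per cell cannot be told apart.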

How the data were processed

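Total RNA from 6 samples (3 K313, 3 WT) was hybridised to Affymetrix Clariom S arrays. The deposited values are log2 expression per probe set, made by the authors with RMA and the Transcriptome Analysis Console, per the submitters' processing notes; versions are not given in the sources used here. RMA scales arrays to each other, although the deposited medians still differ slightly (5.01 to 5.13). A global shift in RNA content is therefore not seen, and changes of dim probe sets are understated. Arrays have no read depth; 3 arrays per group limit the precision (median standard error of a log2 change 0.18).

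Probe sets were named from the platform annotation (2634 have no symbol and stayed in the tests). The fit was limma 3.58.1 in R 4.3.3, lmFit with group as the only term and eBayes, two-sided. All 22206 probe sets entered it, p-values were adjusted by the Benjamini-Hochberg method, and 0.05 was the threshold. Each adjusted p is from this fit or its named alternative. Changes are K313 minus WT, with standard errors, and 95% intervals are unadjusted. Data were simulated for this comparison over 22206 probe sets, with 50 changed at each size. The test called 4% of those at 0.5 log2 units, 78% at 1 and 100% at 2. A far smaller share of probe sets changed in the simulation than was called in the data (7.75%). The adjusted threshold was thus harder to pass in the simulation, and these shares may be too low for the data.

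Members and lists were chosen with earlier results of these data known. Members past the threshold are given by array. Otherwise up to 3 members per role group and up to 4 genes per further chromatin list, by smallest p, are named. All called neutrophil progenitor markers are named, and few or none of the other lineage lists. Alternatives were quantile normalization, a common median, removal of the 30% dimmest probe sets, a robust prior with an intensity trend, array weights, a replicate block, a 1.5-fold minimum and leaving out each array.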

Additional observations from a re-analysis of the deposited data

How the results depend on the processing

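The 9 members called kept their direction in all 12 alternative fits, and 0 members were called higher in any of them. The count of members lower in K313 ranged from 3 to 6 when 1 array was left out, was 5 with the replicate number as a block, and lay between 7 and 10 under the other settings. Under the block the calls of Dnmt3b, Dnmt3a, Kdm6b and Tet1 held, and Kmt2d passed (adjusted p = 0.0202). Deviations of same-numbered arrays from their group means correlated at -0.06, 0.03 and -0.06, which gave no sign of pairing. With 3 arrays per group this check cannot settle whether the numbers pair the samples. The block gave 769 probe sets lower and 777 higher, against 882 and 838. Without 1 array the probe sets lower ranged from 575 to 776, the further chromatin genes lower from 5 to 8 and the median change of the members from -0.33 to -0.17. A common median gave 1064 probe sets lower and 727 higher, and moved the median of all probe sets from 0.02 to -0.06.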

Other observations

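DNA methylation is known to keep a class of germline genes silent in other cells, and to mark the parental copies of imprinted genes. Both lists were drawn up after the values of the methyltransferase genes were seen and carry no test. Of 18 germline genes, such as Dazl, Ddx4, Mael, Sycp3 and Tex101, 0 passed the limma threshold in either direction (1 higher and 0 lower at an unadjusted p under 0.05), against 3.77% higher and 3.97% lower among all probe sets. Their mean log2 level was 4.04 to 4.18 in the K313 arrays and 4.01 to 4.10 in the WT arrays, near background, and the median change was 0.05. Changes ran from -0.21 for Brdt to 0.41 ± 0.18 for Taf7l, which averaged 3.54 in K313 and 3.12 in WT.

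Of 11 measured imprinted genes, 0 passed, against 3.77% higher and 3.97% lower among all probe sets. At an unadjusted p under 0.05, 1 was higher and 1 lower, and the median change was -0.02. Their mean log2 level was 3.97 to 4.15 in the K313 arrays and 3.95 to 4.16 in the WT arrays. That is near background, where a change may not show. Kcnq1ot1, a long non-coding RNA of the Kcnq1 imprinted domain, read 7.71, 6.87 and 6.84 in K313, against 7.38, 9.29 and 8.26 in WT, a difference of -1.17 ± 0.40 (adjusted p = 0.131) with overlapping groups. DNA methylation itself was not measured here.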
